A study of Mus musculus with 12 samples.

Results

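Cholesterol synthesis was examined through 8 genes, *Hmgcs1*, *Idi1*, *Fdft1*, *Sqle*, *Lss*, *Dhcr7*, *Insig1* and *Srebf2*, which were picked by symbol from the 52459 genes listed in the count files. All 8 passed the filter on low counts in each comparison. Of these genes, 6 encode enzymes of the pathway and 2, *Insig1* and *Srebf2*, encode its regulators. None of the 8 is a receptor or carrier for cholesterol uptake, so uptake was described from a separate list. The RNA came from male mice of 4 months of age, either *Tpp1*-/- homozygotes (T) or wild-type siblings (N). *Tpp1* encodes the lysosomal protease tripeptidyl peptidase 1, and its loss is the cause of a late-infantile form of neuronal ceroid lipofuscinosis. The cerebellum (Cb) and the forebrain/midbrain (F/M) of each genotype were sequenced as 3 poly(A)-selected libraries per group, which gave the 4 groups F/M-N, F/M-T, Cb-N and Cb-T.

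Cholesterol is built from acetyl-CoA through the mevalonate pathway to squalene, which is closed into the ring of lanosterol and then trimmed to cholesterol. SREBP-2, the product of *Srebf2*, is a transcription factor held in the endoplasmic reticulum when sterols are plentiful. INSIG-1 takes part in holding it there, and *Insig1* is itself a target gene of SREBP-2. The brain makes nearly all of its own cholesterol, because lipoproteins of the blood do not cross the blood-brain barrier, and most of it lies in myelin.

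The libraries held between 21428379 (Cb-N3) and 24458189 (F/M-N3) counts. Levels below are in CPM, which relates a count to its library total, scaled by the trimmed mean of M values (TMM) among the 6 libraries of an area. In the Cb, *Tpp1* itself was at 114, 116 and 114 CPM in control mice, against 28.7, 31.8 and 30.9 CPM in mutants. In the F/M it was at 91.4, 85.6 and 85.3 CPM in control mice, against 23.7, 21.5 and 23.2 CPM in mutants. Every T library was thus below every N library, in the direction that the labels give. The areas also carried their own markers: all 8 Purkinje cell markers were higher and all 10 forebrain markers lower in Cb-N than in F/M-N.

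In the Cb, most of the 8 genes were higher in *Tpp1*-/- mice, by amounts under the 1.5-fold limit that the study set for a differentially expressed gene (DEG). A gene is said here to have risen or fallen when its adjusted p in edgeR's quasi-likelihood test was below 0.1, at any fold. By this rule 5 of the 8 genes rose, *Hmgcs1*, *Fdft1*, *Sqle*, *Dhcr7* and *Insig1*, and 0 fell. Of the 16382 genes tested in Cb, 29.8% rose and 27.9% fell, so most genes tested in the cerebellum moved one way or the other. The share of rises was larger among the 8 genes than among all genes, over a count of only 8. The median log2 fold change of the 8 genes was 0.31, beside 0.01 over all genes tested. None of the 8 was a DEG (0 of 8 by edgeR, DESeq2 and limma-voom, also at an unadjusted p below 0.05), against 11.2% of all genes. The 0 falls likewise held with edgeR, DESeq2 and limma-voom at an unadjusted p below 0.05. In bulk RNA, a change in the number of cells of a type and a change in RNA per cell cannot be told apart.

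*Hmgcs1* encodes the cytosolic HMG-CoA synthase, which feeds the mevalonate pathway, and had the highest level of the 8 genes. The Cb-N libraries had 147, 149 and 149 CPM of it, and the Cb-T libraries 172, 174 and 180 CPM. The 3 T libraries were all above the 3 N libraries, with a gap between the groups wider than the range within either. Its log2 fold change was 0.24 ± 0.03 (SE, n = 3 per group; edgeR adjusted p = 1.60e-09). *Idi1*, the isomerase that interconverts the isoprene building blocks, was barely detected. In Cb-N its levels were 0.496, 0.886 and 0.708 CPM, and 0.650, 0.990 and 1.07 CPM were found in Cb-T, from 11 to 25 counts per library. These values overlapped, and the log2 fold change of 0.38 ± 0.31 did not pass the test (edgeR adjusted p = 0.315). A change of the size seen in the other genes was not detectable for *Idi1* at these counts. The low count is itself uncertain, since part of its sequence is shared with other genes, as described below.

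The next genes act on squalene and beyond. *Fdft1*, squalene synthase, had 20.5, 20.8 and 22.0 CPM in the controls of the Cb, against 30.1, 30.4 and 29.0 CPM in the mutants. The groups were well apart, and the log2 fold change was 0.50 ± 0.06 (SE; edgeR adjusted p = 3.40e-10), a 1.41-fold difference, the largest of the 8. Its rank is uncertain, because exons of the more abundant *Ctsb*, which also rose, overlap its own. *Sqle*, the squalene epoxidase that acts on its product, had 34.8, 33.4 and 34.6 CPM in Cb-N, against 46.1, 44.6 and 46.4 CPM for the mutants. Again no T library came near an N library, and *Sqle* rose by 0.42 ± 0.05 on the log2 scale (edgeR adjusted p = 2.09e-10). *Lss*, which closes the ring of lanosterol in the next step, was at 45.1, 43.5 and 42.6 CPM in Cb-N. In Cb-T it was at 43.9, 45.1 and 49.4 CPM, with only the last library above all N libraries. Its log2 fold change of 0.07 ± 0.05 did not pass (edgeR adjusted p = 0.178), although without the library Cb-T1 it was 0.11 and did. Over the 14 settings it ranged from 0.02 to 0.11, and it passed in that 1 only. *Dhcr7* encodes the reductase of the last step of one branch of the pathway. Its Cb-N libraries gave 23.8, 24.7 and 23.3 CPM, and its Cb-T libraries 26.8, 29.1 and 27.1 CPM, again without overlap. *Dhcr7* rose by 0.21 ± 0.06 (edgeR adjusted p = 0.00166), the smallest of the 5 rises.

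The 2 regulators differed from each other. For *Insig1* the Cb-N libraries gave 42.0, 43.6 and 43.1 CPM, while the Cb-T libraries gave 57.2, 56.0 and 54.2 CPM. Each T library was above each N library, and the log2 fold change was 0.38 ± 0.04 (edgeR adjusted p = 3.26e-10). For *Srebf2* the values were 122, 122 and 120 CPM in Cb-N, while Cb-T had 130, 123 and 116 CPM. Its T libraries spread to both sides of the N libraries, which lay close together. The log2 fold change of *Srebf2* was 0.02 ± 0.03 (edgeR adjusted p = 0.582), with a 95% interval from -0.04 to 0.09, and it was -0.02 without Cb-T1. The transcript of the factor was thus within the spread of its libraries while 5 of the genes listed with it rose. All T libraries lay above all N libraries for 5 of the 8 genes, compared with 29.3% of all genes tested, and below them for 0 of the 8, compared with 27.6%.

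**Figure D1:**
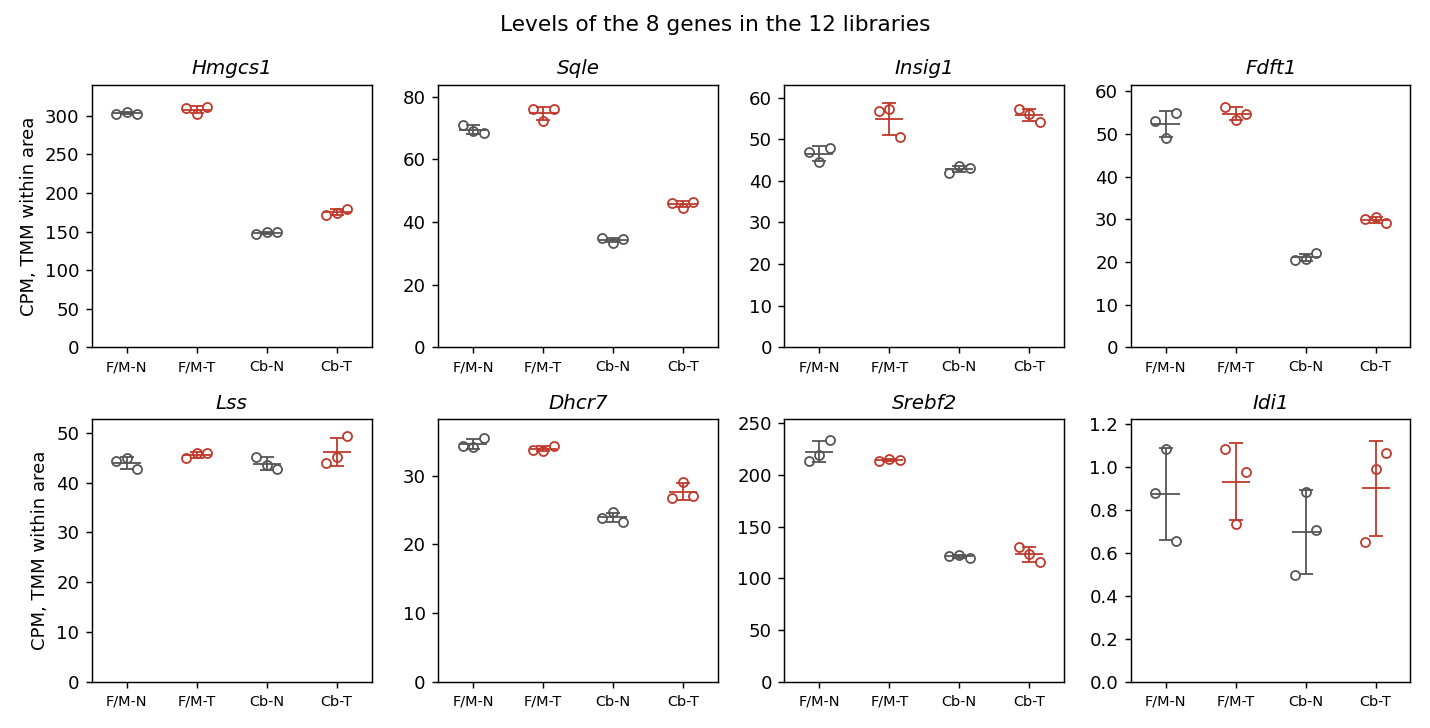
Levels of the 8 genes in each library (circles) with the mean and SD of 3 libraries (bars), in CPM scaled by TMM within each area on a linear axis from 0, for F/M-N, F/M-T, Cb-N and Cb-T. *Hmgcs1*, *Sqle*, *Insig1*, *Fdft1* and *Dhcr7* are higher in all Cb-T than in all Cb-N libraries, while *Srebf2* and *Lss* overlap and *Idi1* stays near 1 CPM.

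In the F/M, the same genes changed little. Of the 8 genes, 2 rose, *Insig1* and *Sqle*, and 0 fell, while among the 16665 genes tested 12.8% rose and 14.4% fell. The 0 falls stood with edgeR, DESeq2 and limma-voom at an unadjusted p below 0.05 too. None was a DEG (0 of 8 by each of these tools, at an unadjusted p below 0.05 as well), against 3.49% of all genes. The median log2 fold change was 0.06, beside 0.01 over all genes tested. A count of 2 of 8 is close to the background. It was 1 of 8 without any one of F/M-N2, F/M-N3, F/M-T1 or F/M-T3, and likewise with DESeq2, with no filter on low counts and in 1 fit of all 12 libraries, which each cost *Sqle* its call. In that fit of 12 libraries 1 gene did fall, *Srebf2*, by 0.09 on the log2 scale.

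*Insig1* was the member with the clearest change in F/M. The F/M-N libraries had 47.0, 44.5 and 48.0 CPM of it, and the F/M-T libraries 56.8, 57.3 and 50.4 CPM. The third T library was close to the controls, yet no T library fell below an N library. Its log2 fold change was 0.24 ± 0.05 (SE; edgeR adjusted p = 0.00210). For *Sqle* the controls gave 71.1, 69.0 and 68.4 CPM and the mutants 76.0, 72.3 and 76.0 CPM, a rise of 0.10 ± 0.04 (edgeR adjusted p = 0.0597). The groups of *Sqle* did not overlap, but their gap was small beside the spread within them. All T libraries lay above all N libraries for these 2 of the 8 genes, a pattern that 17.7% of all genes showed. The opposite pattern was seen for 0 of the 8 and for 17.8% of all genes.

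The other 6 genes overlapped between the genotypes in F/M. *Hmgcs1* had 302, 305 and 302 CPM in control mice, against 310, 303 and 311 CPM in mutants, and its log2 fold change was 0.02 ± 0.03 (95% interval from -0.03 to 0.08). It was -0.01 when all 12 libraries were scaled and fitted together, so that its sign in F/M was not the same under all settings. *Fdft1* ranged from 49.1 to 55.0 CPM among the controls and from 53.2 to 56.2 CPM among the mutants. *Lss* ranged from 42.7 to 45.0 CPM in the N libraries and from 44.9 to 45.9 CPM in the T libraries. Neither gene passed the test, with log2 fold changes of 0.06 ± 0.05 and 0.05 ± 0.04. *Dhcr7* had a log2 fold change of -0.03 ± 0.05 in F/M. *Srebf2* ranged from 214 to 233 CPM in the N libraries and from 213 to 215 CPM in the T libraries, a log2 fold change of -0.05 ± 0.03. The N libraries of *Srebf2* were thus the ones that spread in F/M. *Idi1* was again low, at most 1.09 CPM in any of the 6 libraries, and its log2 fold change was 0.09 ± 0.27. Its sign turned to -0.08 without F/M-N3 and to -0.03 without F/M-T1.

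Whether the genes responded differently in the areas was tested directly, by the interaction of tissue and genotype over all 12 libraries. For 5 of the 8 genes the Cb had the more positive change and for 0 the more negative one, while 17.4% of the 17482 genes tested had a more positive and 10.1% a more negative change in Cb. No more negative change was called by edgeR, DESeq2 or limma-voom, also at an unadjusted p below 0.05 (0 of 8). The median difference of the 8 genes was 0.25 on the log2 scale, beside 0.03 over all genes. All 11 oligodendrocyte markers (median 0.32) and all 9 microglia markers (median 1.20) also had a more positive change in Cb. So did 5 of 10 astrocyte markers, with 2 more negative, and 3 of 10 neuron markers, with 4 more negative. Of 10 granule cell markers 7 were more negative, as were 5 of 8 Purkinje cell markers, with 0 of either list more positive. The part of these markers in the differences of the 8 genes was not tested. *Fdft1* differed by 0.46 ± 0.07 (edgeR adjusted p = 1.02e-05), with the same limit from its overlap with *Ctsb*. *Sqle* differed by 0.33 ± 0.06 (edgeR adjusted p = 4.21e-05), *Dhcr7* by 0.26 ± 0.07 and *Hmgcs1* by 0.24 ± 0.04. *Insig1*, which rose in both areas, differed by only 0.16 ± 0.07 (edgeR adjusted p = 0.0828). That call was lost on leaving out F/M-N1, F/M-N3, F/M-T3 or any 1 of the 6 Cb libraries, with differences from 0.09 to 0.17, and it was also lost with DESeq2 (0.14), with RLE size factors (0.14), at a minimum mean count of 50 (0.12) and at an adjusted p below 0.05. For *Lss*, *Srebf2* and *Idi1* the difference did not pass the test. *Srebf2* had a difference of 0.10 ± 0.05 (edgeR adjusted p = 0.183), and it passed without F/M-N1, at 0.13, and with no filter on low counts, at 0.12. Over the 19 settings the difference of *Srebf2* ranged from 0.0039 to 0.13, and it passed in 2. *Lss* had one of 0.04 ± 0.06, which was -0.06 without Cb-T3.

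In control mice most of the 8 genes were less expressed in the Cb. Of the 8, 6 were lower in Cb-N than in F/M-N and 0 were higher (0 also by DESeq2, by limma-voom and at an unadjusted p below 0.05), where 39.8% of all genes were lower and 39.8% higher. With the 12 libraries on 1 scale, *Fdft1* had 20.7 ± 0.778 CPM in the Cb of controls beside 54.1 ± 3.09 CPM in their F/M (SD, n = 3), a log2 difference of -1.38 ± 0.05. The difference was -1.10 ± 0.03 for *Hmgcs1*, -1.09 ± 0.04 for *Sqle* and -0.94 ± 0.04 for *Srebf2*. For these 4 genes no Cb-N library reached the level of any F/M-N library. *Dhcr7* had a log2 difference of -0.60 ± 0.05 and *Insig1* one of -0.19 ± 0.05. *Lss* and *Idi1* did not pass the test, and *Lss* did pass without F/M-N3 (-0.10), without Cb-N1 (-0.10), with RLE size factors (-0.09) and at a minimum mean count of 50 (-0.09). Among the 14 other enzymes of sterol synthesis described below, 9 were lower and 5 higher in Cb-N. Cell type markers differed in the same comparison: 10 of 11 of oligodendrocytes and all 9 of microglia were lower in Cb-N (medians -0.40 and -1.65), while 3 of 10 of astrocytes were lower and 7 higher. Of 10 neuron markers 6 were lower and 4 higher (median -0.48). Of 10 endothelial markers 6 were higher and 0 lower, and of 10 granule cell markers 9 were higher and 1 lower. The part of these markers in the levels of the 8 genes was not tested. The rise in mutants left *Sqle* below its level in the F/M of control mice, with 44.7 ± 0.584 CPM in Cb-T beside 71.9 ± 1.59 CPM in F/M-N on this scale. *Insig1*, in contrast, had 54.5 ± 1.47 CPM in Cb-T beside 48.1 ± 1.87 CPM in F/M-N. These last differences, between genotypes across areas, were not tested.

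Levels of different genes were compared per kilobase of exon, with the 12 libraries on 1 scale, over every base that GENCODE assigns to an exon of any transcript of the gene. In Cb-N the order was *Hmgcs1* at 31.6, *Srebf2* at 16.5, *Insig1* at 13.6, *Sqle* at 6.04, *Fdft1* at 4.89, *Dhcr7* at 4.02, *Lss* at 3.97 and *Idi1* at 0.195 CPM per kilobase. Only *Dhcr7* (3.92 to 4.15) and *Lss* (3.87 to 4.09) overlapped among neighbours in that order. In F/M-N the order was *Hmgcs1* at 68.3, *Srebf2* at 32.0, *Insig1* at 15.6, *Sqle* at 13.0, *Fdft1* at 12.8, *Dhcr7* at 6.15, *Lss* at 4.21 and *Idi1* at 0.259 CPM per kilobase. Here *Sqle* and *Fdft1* overlapped. The order of the genes was the same in both areas although most levels differed.

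Of the 14 other enzymes of sterol synthesis examined, 7 rose, 1 fell and 6 did not pass in Cb, where 29.8% of all genes rose and 27.9% fell. Their median log2 fold change was 0.13, beside 0.31 for the 8 genes and 0.01 over all genes tested. *Msmo1*, the methylsterol monooxygenase, was at the top with 0.49 ± 0.04 (edgeR adjusted p = 1.15e-12). *Acat2*, which joins acetyl-CoA units at the start of the pathway, rose by 0.35 ± 0.07. *Nsdhl* rose by 0.28 ± 0.07 and *Mvd* by 0.28 ± 0.07. *Tm7sf2*, a sterol reductase, was the 1 that fell, by 0.19 on the log2 scale, and this call was lost without Cb-N1, while without Cb-N2 the number that fell was 2. *Tm7sf2* is named because it makes up that count, after its value was seen. *Sc5d* did not pass in Cb, and the sign of its change there depended on the scaling.

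In F/M, 4 of the 14 enzymes rose, *Mvd*, *Msmo1*, *Nsdhl* and *Sc5d*, and the other 10 did not pass, where 12.8% of all genes rose. The calls were close to the threshold: *Msmo1* had a log2 fold change of 0.12 ± 0.04 (edgeR adjusted p = 0.0262) and *Sc5d* one of 0.09 ± 0.04 (edgeR adjusted p = 0.0787). The 4 were 1 with DESeq2, with no filter on low counts, in the fit of all 12 libraries and at an adjusted p below 0.05. Leaving out 1 library at a time left between 0 and 2 enzymes that rose, for each of the 6 libraries. By the interaction, 4 of the 14 enzymes had a more positive change in Cb and 1 a more negative one, beside 17.4% and 10.1% of all genes. The 4 were 2 with DESeq2, at a minimum mean count of 50 and without Cb-N3, Cb-T1 or Cb-T3. The 1 was 1 with limma-voom, 2 at that minimum, and 0 with DESeq2, with no filter, at an adjusted p below 0.05 and without F/M-N1, F/M-N2, F/M-T1, F/M-T2, Cb-N1 or Cb-N2. The difference of *Msmo1* (0.39 ± 0.06) lay between those of *Sqle* and *Fdft1*.

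**Figure D2:**
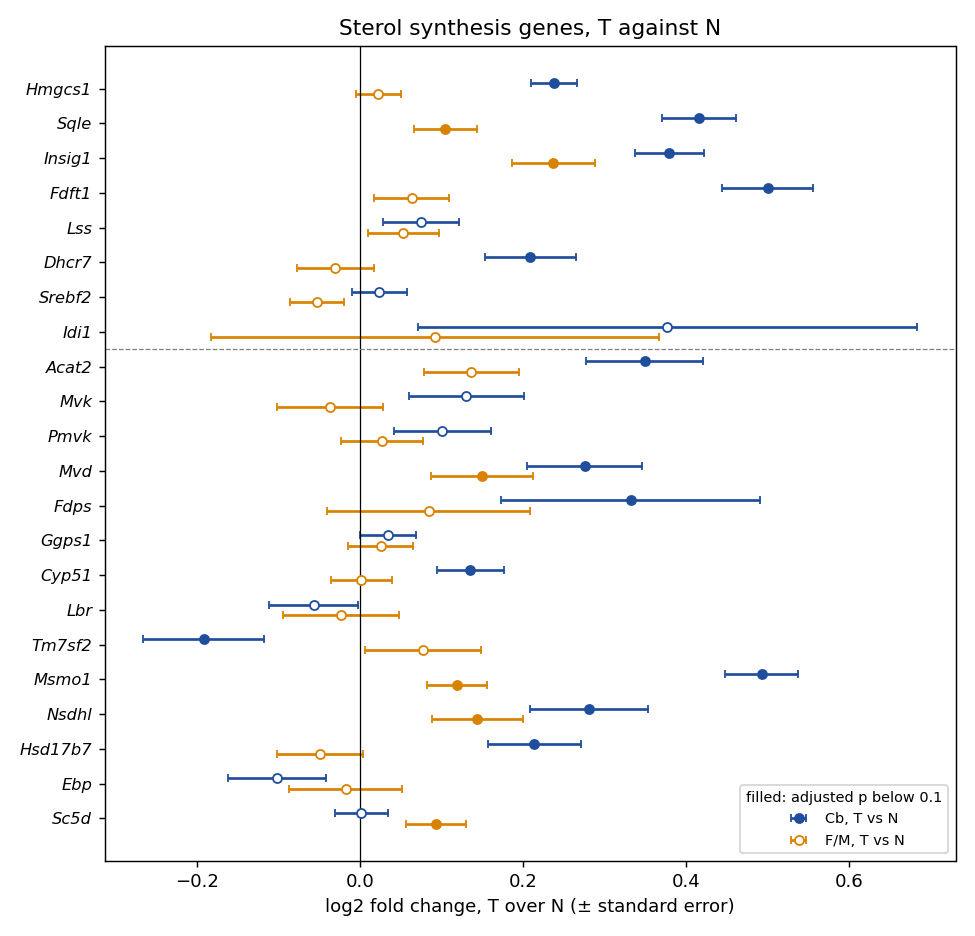
Log2 fold change of T over N (x axis) with its standard error for the 8 genes, above the dashed line, and the 14 other enzymes, in Cb (blue) and in F/M (orange), with filled points at an adjusted p below 0.1 in edgeR's test. In Cb *Fdft1* (0.50), *Msmo1* (0.49) and *Sqle* (0.42) lie farthest to the right, and in F/M *Insig1* (0.24) does.

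Among 6 further genes of SREBP processing and sterol sensing, 2 rose and 1 fell in Cb, and 1 rose in F/M while the other 5 did not pass. These counts and those of the next lists are to be read beside the 29.8% of all genes that rose and the 27.9% that fell in Cb, and the 12.8% and 14.4% in F/M. *Srebf1*, which encodes SREBP-1, rose by 0.34 ± 0.04 in Cb and by 0.15 ± 0.04 in F/M, unlike *Srebf2*. *Scap*, the escort protein of the SREBPs, fell by 0.12 in Cb. The rise of *Rnf139* (0.12 ± 0.05), which encodes a ubiquitin ligase, was small, and the 2 rises were 1 with DESeq2 and without Cb-N1 or Cb-T3. *Mbtps2*, a protease that releases the SREBPs, had a log2 fold change of 0.06 ± 0.05 in Cb. Of 10 genes of fatty acid synthesis and desaturation, many of them SREBP targets, 9 rose and 1 fell in Cb, and 4 rose and 2 fell in F/M. *Fads2* rose by 0.55 ± 0.04, *Fads1* by 0.36 ± 0.03, *Scd1* by 0.23 ± 0.03 and *Scd2* by 0.20 ± 0.02 in Cb. *Elovl6* fell by 0.34 in Cb and by 0.27 in F/M, and *Fasn* rose by 0.07 ± 0.03 in Cb but fell by 0.12 in F/M. The rise of *Fasn* did not pass with DESeq2 (0.06), in the fit of all 12 libraries (0.05) or without Cb-N2 (0.05), Cb-N3 (0.03) or Cb-T2 (0.05).

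Uptake and lysosomal release of cholesterol were described over 8 other genes. In Cb 4 rose and 3 fell, and in F/M 2 rose and 3 fell, the latter 1 with DESeq2 and without F/M-N2 or F/M-T1. *Npc2*, the lysosomal cholesterol carrier, rose by 0.81 ± 0.04 in Cb, where it was the 1 DEG of this list, and by 0.56 ± 0.04 in F/M. *Scarb2*, a lysosomal membrane protein, rose by 0.19 ± 0.03 in Cb and by 0.12 ± 0.03 in F/M. The receptors *Lrp1* and *Lrp8* fell by 0.28 and by 0.27 in Cb, and *Lrp1* fell by 0.14 in F/M, a call lost with DESeq2 and without F/M-N2 or F/M-T1, while *Lrp8* did not pass there but did in the fit of all 12 libraries (-0.10). *Scarb1* fell by 0.19 in F/M and had a log2 fold change of 0.13 ± 0.09 in Cb. The 9 genes of sterol hydroxylation, esterification and the LXR receptors included 5 that rose and 3 that fell in Cb. *Ch25h*, cholesterol 25-hydroxylase, rose by 2.97 ± 0.32 on the log2 scale in Cb and was the 1 DEG of the list, from only 4 to 7 counts in each control library of the Cb, against 41 to 63 in each mutant one. In F/M its log2 fold change of 1.02 ± 0.44 did not pass (edgeR adjusted p = 0.112), but it passed with limma-voom (1.20), with no filter on low counts (1.02), in the fit of all 12 libraries (0.99) and without F/M-N3 (1.83) or F/M-T1 (1.29). *Cyp7b1* rose by 0.52 ± 0.10, *Soat1* by 0.22 ± 0.05, *Cyp46a1* by 0.21 ± 0.05 and *Abca1* by 0.18 ± 0.03 in Cb. In F/M 2 rose, *Abca1* and *Cyp7b1*, and 1 fell, *Cyp46a1*. There the rises were 1 with DESeq2 and without F/M-N1 or F/M-T3, and the 1 fall was 2 in the fit of all 12 libraries and 0 without F/M-N1 or F/M-T2.

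The make-up of the libraries moved with genotype in the same comparison, and its part in the changes of the 8 genes was not tested. Oligodendrocytes make myelin and use much cholesterol, and 10 of 11 markers of theirs rose in Cb, where 29.8% of all genes rose. Their summed level was 1603, 1590 and 1622 CPM in Cb-N, against 1964, 1985 and 1970 CPM in mutants, led by *Mobp*. In F/M 1 of the 11 rose and 3 fell, with sums of 2094, 2047 and 2102 CPM for controls and 2091, 2032 and 2085 CPM for mutants. That 1 rise was 0 with DESeq2, in the fit of all 12 libraries and without F/M-N1, F/M-N2, F/M-T1 or F/M-T3 and 2 without F/M-T2. In Cb, 5 of the 8 genes rose beside these markers. Of 10 astrocyte markers, 8 rose and 1 fell in Cb and 7 rose in F/M. Their sum was 8438, 8366 and 8388 CPM in Cb-N, against 9682, 9689 and 9740 CPM in mutants. In the F/M, where *Slc1a2* was the most abundant of them, it was 7997, 8058 and 7820 CPM for controls and 8593, 8903 and 8558 CPM for mutants. All 9 microglia markers rose in Cb and 7 of 9 in F/M. Over the 12 libraries *C1qa* was the most abundant of them, though not among the controls of either area. Their sum was 82.0, 85.4 and 88.8 CPM in Cb-N, against 349, 350.1 and 342 CPM in mutants. In the F/M it was 253, 252 and 258 CPM for controls and 424, 404 and 412 CPM for mutants. Of 10 endothelial markers, led by *Flt1*, 7 rose in Cb and 4 in F/M, with sums of 330, 342 and 333 CPM for Cb-N, 378, 379 and 375 CPM for Cb-T, 283, 286 and 277 CPM for F/M-N, and 306, 309 and 297 CPM for F/M-T. The 4 were 2 with DESeq2 and without F/M-N1 or F/M-N3.

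Many markers of neurons fell in the same Cb comparison. Of 10 neuron markers, led by *Snap25*, 2 rose and 6 fell in Cb and 4 fell in F/M. Their sums were 7460, 7516 and 7459 CPM for Cb-N, 6968, 6825 and 6893 CPM for Cb-T, 9334, 9374 and 9382 CPM for F/M-N, and 8947, 9003 and 8959 CPM for F/M-T. Of 10 granule cell markers, 9 fell in Cb and 2 in F/M. *Cbln3*, the most abundant of them in Cb, was the 1 that did not pass there, and it was low in F/M. The sum was 7491, 7570 and 7430 CPM for Cb-N, 6377, 6267 and 6235 CPM for Cb-T, 1392, 1421 and 1434 CPM for F/M-N, and 1347, 1342 and 1353 CPM for F/M-T. Without F/M-T2, 1 of these 10 rose in F/M, and in the fit of all 12 libraries 4 fell there. All 8 Purkinje cell markers, led by *Itpr1*, fell in Cb, while 3 of 7 tested rose and 2 fell in F/M. The sums were 8846, 8808 and 8584 CPM for Cb-N, 7251, 7315 and 7243 CPM for Cb-T, 1090, 1102 and 1038 CPM for F/M-N, and 970.0, 1020.2 and 962 CPM for F/M-T. Genes of neighbouring regions differed as well. Of 14 hindbrain and brain stem markers, with *Tph2* the most abundant over the 12 libraries but not in F/M-N, all 13 tested rose in Cb, with sums of 2.39, 2.10 and 1.60 CPM for Cb-N and 21.9, 20.1 and 20.2 CPM for Cb-T. In the F/M the sums were 6.05, 5.35 and 5.18 CPM for controls and 20.9, 20.4 and 20.4 CPM for mutants, where 2 of the 3 tested rose. In Cb-N *Hoxb5*, *Hoxc4* and *Hoxc5* had no count in any library, while in Cb-T none of the 14 was at 0 in all libraries. All F/M-N libraries lacked *Hoxa2*, *Hoxa3*, *Hoxa4*, *Hoxa5*, *Hoxb2*, *Hoxb4*, *Hoxb5*, *Hoxc4* and *Hoxc5*, and of these *Hoxc4* alone had counts in F/M-T. Of the 8 forebrain markers tested in Cb, led by *Ppp1r1b*, 4 rose and 2 fell (1 without Cb-T1), and in F/M 1 of 10 rose (2 without F/M-N3) and 4 fell. The forebrain sums were 177, 171 and 183 CPM for Cb-N, 178, 178 and 181 CPM for Cb-T, 839, 819 and 858 CPM for F/M-N, and 825, 799 and 817 CPM for F/M-T. In Cb this sum was mostly *Ppp1r1b*, with a mean of 161 of 177 CPM in Cb-N and 148 of 179 CPM in Cb-T. The near-equal sums there hid changes in other markers. Of the 8 tested in Cb, 3 were DEGs that rose and 0 were DEGs that fell, where 11.2% of all genes were DEGs. Of the olfactory bulb markers, with *Eomes* the most abundant over the 12 libraries but highest only in Cb-N, 2 of 4 tested rose and 1 fell in Cb, and 6 of 7 fell in F/M. The olfactory bulb sums were 68.1, 67.1 and 71.0 CPM for Cb-N, 28.3, 30.6 and 32.0 CPM for Cb-T, 54.6, 54.6 and 54.0 CPM for F/M-N, and 31.0, 29.1 and 29.9 CPM for F/M-T. Of the mean of this sum, *Eomes* alone made up 54.1 of 68.8 CPM in Cb-N and 11.7 of 30.3 CPM in Cb-T. *Eomes* was the 1 marker of the list that fell in Cb, so the lower sum there was that of 1 gene. The share of counts on mitochondrial genes was 3.25%, 3.29% and 3.35% for Cb-N, 3.86%, 3.79% and 3.81% for Cb-T, 3.74%, 3.66% and 3.76% for F/M-N, and 4.27%, 4.17% and 4.24% for F/M-T. The part of none of these in the changes of *Hmgcs1*, *Fdft1*, *Sqle*, *Dhcr7* and *Insig1* was tested.

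Within a group, the 8 genes varied together little. After the mean of each group was subtracted from log2 CPM and each of the 8 genes was divided by its SD, so that all weigh alike, the correlation of a gene with the mean of the other 7 ranged from -0.59 for *Srebf2* to 0.31 for *Hmgcs1* over the 12 libraries. Over the 28 pairs of genes the median r was 0.08, with a range from -0.79 to 0.83. As a description with no test, the genes outside the lists most like the mean of the 8, of those reported, were *Prkcd* (r = 0.93), *Tkt* (0.93), *Rab15* (0.92), *Penk* (0.92) and *Sec13* (0.91), of 10464 genes compared over the 12 libraries. With 3 libraries per group and so many genes, 4.98% of the genes compared reached an r above 0.7. The part of library preparation and depth in these correlations was not tested.

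The positions of the genes decide which counts are secure. *Fdft1* (chr14:63145150-63179578, GRCm38, minus strand) meets *Ctsb*, a lysosomal cathepsin gene on the plus strand, end to end. Exons of *Ctsb* cover 18.3% of the exon bases of *Fdft1*, at the 3′ ends of both. *Ctsb* was far more abundant, with 634 ± 6.59 CPM (SD) in Cb-N beside 884 ± 11.5 CPM in Cb-T. It rose by 0.48 ± 0.02 in Cb and by 0.27 ± 0.03 in F/M. Since the strand setting of the counting is not stated, reads of the shared bases cannot be told apart, and the value of *Fdft1* is uncertain. Of the 50-base words of its transcripts 26.5% are also in transcripts of other genes, most in *Ctsb* and others in *Gm6781*, the largest share among the 8 genes. *Ctsb* was named for its position and is in none of the lists. *Idi1* (chr13:8885501-8892451) shares 25.3% of the 50-base words of its transcripts with transcripts of other genes, most with *Gm13502*, and 9.22% of its exon bases lie under the antisense gene *Gm48574*, so its low count is uncertain too. For *Hmgcs1* (chr13:119690379-119708260) 12.1% of exon bases lie under the antisense gene *Gm48342*, and 11.6% of its words are shared. The remaining 5 genes share little: *Sqle* (chr15:59315077-59331192) 0.0358%, *Srebf2* (chr15:82147181-82205379) 0.396%, *Dhcr7* (chr7:143823145-143848410) 1.37%, *Lss* (chr10:76531588-76557138) 1.86% and *Insig1* (chr5:28071363-28078662) 2.17% of their words. Of the other enzymes named, *Acat2* shares 39.1% of its words, most with *Acat3*. The 8 genes lie on 6 chromosomes, with *Hmgcs1* and *Idi1* on chromosome 13 and *Sqle* and *Srebf2* on chromosome 15.

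The letters before the starts of the 8 genes were read as a description. RefSeq promoter windows of GRCm38.p6 were given for 6 of the 8 genes, all but *Fdft1* and *Sqle*, with 1 window each but 3 for *Dhcr7*, so 8 in all. Their 250 bases before the start were searched on both strands for the core of the sterol regulatory element (TCACNCCAC), the box of NF-Y (CCAAT) and the box of Sp1 (GGGCGG). The core of the sterol regulatory element was in 1 of the 8, that of *Hmgcs1*, at -137 from the start, and in 1.05% of all 32851 windows. The CCAAT box was in 6 of the 8 windows, and in 33.8% of all windows. In *Dhcr7* it was found in the third window (chr7:143829964-143830213), inside the gene, and not in the 2 at its start. The GGGCGG box was in 7 of the 8 windows and in 32.7% of all windows. No base belonged to matches of more than 1 motif. A match is a description of letters, and no match says only that these letters are not in the window. Shown are *Hmgcs1* and *Insig1*, which rose in Cb, and *Lss* and *Srebf2*, which did not pass the test there. The bases end before the gene starts of both RefSeq and GENCODE, and capitals mark the 3 motifs on either strand.
*Hmgcs1* (chr13:119690101-119690350, + strand): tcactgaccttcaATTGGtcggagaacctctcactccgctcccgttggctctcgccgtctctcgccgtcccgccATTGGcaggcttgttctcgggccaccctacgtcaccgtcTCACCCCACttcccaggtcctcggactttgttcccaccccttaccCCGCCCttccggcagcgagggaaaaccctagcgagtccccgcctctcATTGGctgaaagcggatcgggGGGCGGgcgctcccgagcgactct
*Insig1* (chr5:28071162-28071362, + strand): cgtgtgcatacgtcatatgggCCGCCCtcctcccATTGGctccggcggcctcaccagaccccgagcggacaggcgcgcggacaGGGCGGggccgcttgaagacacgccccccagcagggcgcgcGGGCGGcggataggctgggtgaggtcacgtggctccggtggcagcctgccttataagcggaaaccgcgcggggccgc
*Lss* (chr10:76531355-76531587, + strand): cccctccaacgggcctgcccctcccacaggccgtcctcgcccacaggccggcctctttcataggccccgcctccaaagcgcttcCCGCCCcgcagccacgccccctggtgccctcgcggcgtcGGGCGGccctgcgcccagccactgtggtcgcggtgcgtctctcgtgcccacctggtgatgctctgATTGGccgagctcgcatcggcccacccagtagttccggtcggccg
*Srebf2* (chr15:82147019-82147180, + strand): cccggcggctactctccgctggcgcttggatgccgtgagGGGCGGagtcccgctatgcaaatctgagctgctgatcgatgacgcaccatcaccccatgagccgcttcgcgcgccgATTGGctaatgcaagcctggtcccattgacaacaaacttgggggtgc
In these stretches *Hmgcs1* holds the CCAAT box 3 times, and *Insig1*, *Lss* and *Srebf2* hold it 1 time each. The CCAAT and GGGCGG boxes were present both in genes that rose and in genes that did not pass.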

How the data were processed

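RNA of the Cb and F/M of T and N mice was sequenced in 12 libraries, 3 per group, grouped by their labels. The authors aligned single-end reads to GRCm38 with STAR and counted them per gene with featureCounts, and the deposited values are raw counts per gene, without normalization. The strand setting, the treatment of reads with several alignments and the annotation release are not given in the sources used here. From these counts, genes were filtered (filterByExpr, minimum count 10, minimum total 15), normalized by TMM and tested with the quasi-likelihood test of edgeR 4.0.16 in R 4.3.3, with Benjamini-Hochberg adjustment over all genes tested, per area with 6 libraries and over all 12 for the interaction and for Cb-N against F/M-N. A DEG needed an adjusted p below 0.1 and at least 1.5-fold. Every adjusted p is from this edgeR test unless another is named.

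The alternatives were DESeq2 1.42.0, limma-voom (limma 3.58.1), RLE size factors, no filter, a minimum mean count of 50, the replicate number as a block, 1 fit of all 12 libraries or of the control libraries, an adjusted p below 0.05, leaving out each library and a prior count of 0.5 in place of 2 for the correlations. The 8 genes, the 5 other pathway lists and the 10 marker lists were chosen with earlier results of these data known. Named were the 8 genes, *Tpp1*, the 4 genes of each pathway list with the smallest p in each area, the 5 genes outside the lists with the highest r, and the most abundant gene and the genes at 0 of each marker list. The methods of the study name 3 mice per genotype as the source of both areas, but which Cb and F/M libraries share a mouse is not given in the sources used here. The 12 pairs of replicates differed by more than sampling noise (chi-square per degree of freedom 1.27 to 3.37). A level of 3 counts, the smallest taken as detectable, was 0.123 to 0.140 CPM, for counting error only. The fits were tested on simulated data. Positions and exon lengths were taken from GENCODE vM21. Some genes of cholesterol metabolism and some cell type markers are not reported here.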

Additional observations from a re-analysis of the deposited data

Results flagged for a closer look

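The change with genotype differed between Cb and F/M, by the interaction test of edgeR over 12 libraries, for 5 of the 8 genes. It was more positive in Cb for these 5, as for 17.4% of the 17482 genes tested, while 10.1% had a more negative change. The log2 change in Cb minus that in F/M was 0.46 for *Fdft1*, 0.33 for *Sqle*, 0.26 for *Dhcr7*, 0.24 for *Hmgcs1* and 0.16 for *Insig1*. Among the other sterol enzymes named it was 0.39 for *Msmo1* and 0.23 for *Acat2*. *Srebf1* had a difference of 0.21. The desaturases and related genes had differences of 0.41 for *Fads2*, 0.28 for *Fads1*, 0.20 for *Fasn*, 0.19 for *Scd2* and 0.12 for *Scd1*. Named genes of uptake and lysosomal release differed by 0.34 for *Scarb1*, 0.26 for *Npc2* and -0.18 for *Lrp8*, while the highest difference in that whole list was 0.39. Among the named genes of sterol modification the difference was 1.97 for *Ch25h*, 0.33 for *Cyp46a1*, 0.32 for *Cyp7b1* and 0.29 for *Soat1*. *Fasn* and *Cyp46a1* rose in Cb and fell in F/M, but the rise of *Fasn* was lost with DESeq2, in the fit of all 12 libraries and without Cb-N2, Cb-N3 or Cb-T2, and the fall of *Cyp46a1* without F/M-N1 or F/M-T2. The difference no longer passed without F/M-N3 for *Ch25h* (1.16), without Cb-T3 for *Scarb1* (0.22), and without Cb-T1 (0.08) or Cb-T3 (0.07), with DESeq2 (0.09) or at a minimum mean count of 50 (0.07) for *Scd1*. *Insig1*, *Acat2* and *Cyp7b1* lost it with DESeq2, at an adjusted p below 0.05 and without any of several libraries, *Insig1* and *Acat2* also with RLE size factors and at that minimum, *Acat2* down to 0.11 without Cb-T1 and *Cyp7b1* to 0.20 without Cb-T3. Groups of 3 libraries were not searched for single libraries that stand apart.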

How the results depend on the processing

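The 5 rises in Cb passed under all 14 settings, and those of *Hmgcs1*, *Sqle*, *Fdft1* and *Dhcr7* were larger in Cb than in F/M under all 19 settings of the interaction. In F/M *Insig1* passed under all 14 and *Sqle* under 6. The number of the 8 genes that rose in F/M was 1 in place of 2 with DESeq2, with no filter on low counts, in 1 fit of all 12 libraries and at an adjusted p below 0.05, and it was 1 to 2 when single libraries were left out. Some signs turned. In the fit of all 12 libraries *Hmgcs1* had -0.011 in F/M. *Sc5d* in Cb had -0.0076 with DESeq2, -0.0076 with RLE size factors and -0.012 in the fit of all 12 libraries, and -0.021 to 0.019 with single libraries left out. The difference between the areas was -0.00370 for *Lss* at a minimum mean count of 50. With single libraries left out, *Srebf2* ranged from -0.018 to 0.064 in Cb and *Idi1* from -0.080 to 0.27 in F/M. The difference between areas then ranged from -0.061 to 0.067 for *Lss* and from -0.00135 to 0.095 for *Rnf139*. Between the control areas, *Rnf139* ranged from -0.042 to 0.012 and *Ch25h* from -1.01 to 0.22. The causes were not tested.

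With the replicate number as a block, 5 of the 8 genes rose in Cb, 2 in F/M and 5 by the interaction, and 6 were lower in Cb-N than in F/M-N, so that the block changed no count of the 8 genes. Without the block, 29.8% of all genes rose in Cb and 12.8% in F/M. By the interaction 17.4% had a more positive change in Cb, and 39.8% were lower in Cb-N than in F/M-N. After the group means were subtracted, samples of the same number had correlations of -0.06, 0.02 and 0.07 between Cb-N and Cb-T, 0.01, 0.30 and 0.07 for the genotypes of the F/M, 0.08, 0.14 and 0.32 between F/M-N and Cb-N, and -0.04, 0.04 and 0.02 between F/M-T and Cb-T. In each of these pairs of groups at least 1 sample correlated best with another number. Of the single genes named, *Ch25h* (1.04) and *Acat2* (0.14) passed in F/M with the block, *Lrp1* (-0.13) and *Scarb2* (0.08) by the interaction, and *Scarb2* (-0.05) between the control areas. The difference of *Lrp1* also passed with RLE size factors (-0.15), with no filter (-0.11) and at a minimum mean count of 50 (-0.18). It passed as well without F/M-N2, F/M-T1, Cb-N3, Cb-T1 or Cb-T3, at -0.19 to -0.16. *Acat2* in F/M also passed at that minimum (0.14) and without F/M-T2 (0.19), and the difference of *Scarb2* without F/M-T2 (0.10). Among the marker lists in F/M, the block moved the granule cell markers that fell from 2 to 4, and 1 granule cell marker and 1 neuron marker then rose. Of the 8 genes *Idi1* had the lowest counts.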
